A study of Mus musculus with 13 samples.

Results

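Elastic fibre genes were followed in lung fibroblasts of Col1a1-GFP mice, in which the promoter of a type I collagen gene drives green fluorescent protein. The 10 genes were elastin (Eln), the fibrillins Fbn1 and Fbn2, the microfibril-associated Mfap2, Mfap4 and Mfap5, and the fibulins Fbln2, Fbln5, Efemp1 and Efemp2. They were taken by gene name from the deposited table of RPKM (reads normalised for gene length and library size), where each had 1 entry among 43346 entries. The treated groups were 3 libraries from mice 8 weeks old at day 14 after bleomycin, 5 libraries from mice of the same age at day 30 after bleomycin, and 3 libraries of sorted primary lung fibroblasts at day 14 after pneumonectomy (PNX). They were set against 2 libraries from sham mice 8 weeks old. Bleomycin is a drug that injures and scars the mouse lung, and pneumonectomy, the removal of a lung, is followed by growth of the lung that remains. All groups carry the reporter per the series' text, and any cell with an active collagen promoter can enter such a sort. The group line over the PNX columns of the deposited table calls them young. Neither an age in weeks for the PNX mice nor a day for the sham mice is given in the sources used here. The labels do not say that each library is 1 animal, so p-values measure the spread between libraries.

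Elastic fibres have a core of crosslinked elastin laid on a sheath of microfibrils, and they give the lung its recoil. Fibrillins are the long proteins that build the microfibrils, and the Mfap proteins decorate them. Some fibulins bind both tropoelastin and fibrillin and bring the crosslinking enzymes to the growing fibre. In the mouse lung most elastin is laid down while the alveoli form.

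The 8 fibroblast markers checked (Col1a1, Col1a2, Col3a1, Dcn, Lum, Pdgfra, Pdgfrb and Thy1) were each at or above 1 RPKM in all 13 libraries. The depth recovered from low values was 67.6 M to 200.2 M reads a library, highest at bleomycin day 30. Markers of other cells also differed between groups. The summed level of 11 endothelial markers was 330 to 643 RPKM at bleomycin day 14, 24.9 to 29.6 at bleomycin day 30, 27.4 to 56.6 after PNX and 35.9 to 38.4 in sham. The summed level of 9 macrophage markers was 119 to 404 RPKM at bleomycin day 14, 190 to 693 at bleomycin day 30, 24.2 to 42.3 after PNX and 26.8 to 31.0 in sham. Smooth muscle markers, whose cells also make elastin, summed to 488 to 618 RPKM at bleomycin day 14, 443 to 683 at bleomycin day 30, 1138 to 1540 after PNX and 579 to 1190 in sham. Epithelial markers summed to 1238 RPKM in bleomycin day 30 replicate 3 and 499 in PNX library A. The female transcript Xist was at 19.9 to 29.2 RPKM in the bleomycin day 30 libraries and 15.9 in sham replicate 1, and at most 0.0222 in the other 7 libraries. Sham replicate 1 also held the Y-linked Ddx3y at 2.14 RPKM, so the sexes were not balanced between the groups. Their part in the results below was not tested.

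Against sham, the genes moved in different directions. Elastin and Fbn2 rose in all 3 treated groups, while Fbln2 and Efemp1 fell in all 3. Fbln5 fell after bleomycin at both days, Mfap4 and Mfap5 fell at bleomycin day 14, and Mfap4 and Mfap2 rose after PNX. Fbn1, the main fibrillin, and Efemp2 were not called in any of these 3 comparisons, which share the sham libraries. Under other settings or with a library left out, the calls of Fbn2 and Mfap2 after PNX were lost, as given below. So were those of Eln and Fbln5 at bleomycin day 30, and of Fbln2 and Efemp1 at bleomycin day 30 and after PNX. A call is an adjusted p under 0.05 (limma, Benjamini-Hochberg over 12938 genes), and a change is a difference in log2(RPKM + 0.1) after scaling between libraries, ± its standard error (SE). All 10 genes passed the filter on low values, Fbn2 through bleomycin libraries alone. Its calls for bleomycin against sham or PNX, included in the counts below, therefore support nothing beyond the levels themselves.

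At bleomycin day 14, 2 of the 10 genes were called higher and 5 lower than in sham. Of all genes tested, 33.4% were called higher and 29.9% lower (63.3% either way), so a call by itself was common in this comparison. Called and changed at least 2-fold were Eln, Fbn2, Mfap5, Fbln2, Fbln5 and Efemp1, 6 of the 10, beside 22.1% of all genes. At bleomycin day 30, 2 were called higher and 3 lower, beside 14.8% of all genes higher and 14.1% lower (28.8% either way), and 3 of the 10 (Eln, Fbn2 and Efemp1) passed 2-fold as well, beside 6.19% of all genes. Without sham replicate 2, 3 of the 10 were called there, beside 1785 genes in place of 3731. After PNX, 4 were called higher and 2 lower, beside 22.6% higher and 19.3% lower (42.0% either way), and 3 of the 10 (Eln, Fbn2 and Mfap4) passed 2-fold as well, beside 9.81% of all genes. Without sham replicate 2, 3 were called there, all higher, beside 3341 genes in place of 5430. The median change of the 10 genes was -0.55 at bleomycin day 14, 0.02 at bleomycin day 30 and 0.20 after PNX, where the median over all genes lay between -0.00 and 0.02.

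**Figure D1:**
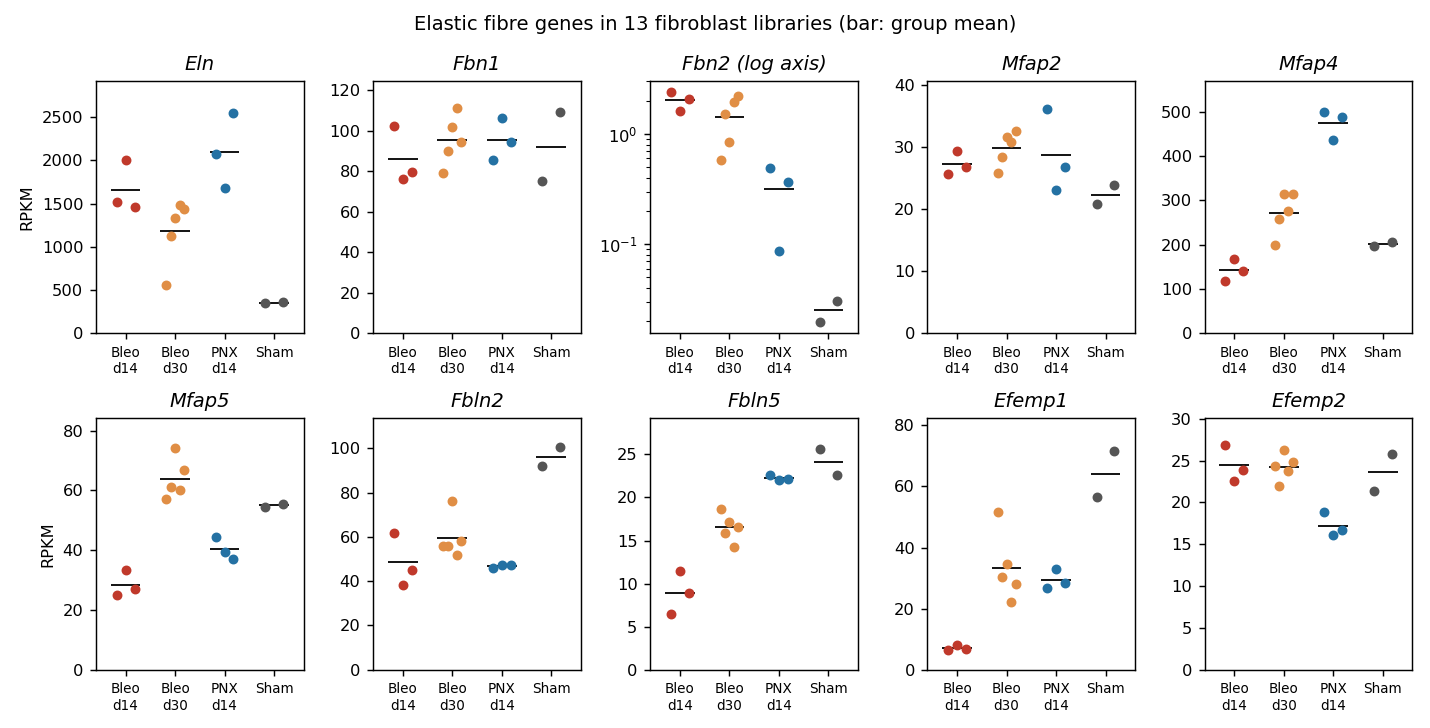
RPKM (vertical axis, one panel per gene, logarithmic for Fbn2) of the 10 elastic fibre genes in each library of the 4 groups, with bars at the group means. Every treated library lies above both sham libraries for Eln and Fbn2 and below both for Fbln2 and Efemp1. The share of all genes separated from sham in this way was not taken.

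Eln encodes tropoelastin, the soluble unit of the fibre core (chr5:134702593-134747323 of GRCm38, minus strand, 36 merged exon blocks). It was at 1517, 2000 and 1459 RPKM at bleomycin day 14, at 557, 1120, 1330, 1487 and 1441 at bleomycin day 30, at 2078, 1681 and 2544 after PNX, and at 343 and 357 in sham. The lowest treated library, bleomycin day 30 replicate 1, was still above both sham libraries, and bleomycin day 14 overlapped both other treated groups, while bleomycin day 30 lay wholly below PNX. Among 22032 protein-coding entries Eln ranked 2 to 3 at bleomycin day 14, 3 to 14 at bleomycin day 30, 2 to 3 after PNX and 20 to 23 in sham, so it was already one of the highest transcripts of sham fibroblasts. Its mean was 1659 ± 297 RPKM (SD, n = 3) at bleomycin day 14, 1187 ± 380 (n = 5) at bleomycin day 30, 2101 ± 432 (n = 3) after PNX and 349.9 ± 9.93 (n = 2) in sham. Against sham it rose by 1.99 ± 0.36 at bleomycin day 14 (adjusted p = 0.000475, limma), by 1.56 ± 0.33 at bleomycin day 30 (adjusted p = 0.00536) and by 2.79 ± 0.36 after PNX (adjusted p = 0.000136). Each of these calls held without any one library, but the bleomycin day 30 call was lost with a replicate block in the fit (1.25, adjusted p = 0.12, limma). The smooth muscle marker sums given above reached their highest values after PNX, overlapping sham, and their part in the level of Eln was not tested. The bulk libraries cannot tell more RNA per cell from more cells of a type that makes it, here and in what follows.

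Fbn1 builds most microfibrils of adult tissue (chr2:125300594-125507993, minus strand, 65 merged exon blocks). It was at 103, 76.3 and 79.6 RPKM at bleomycin day 14, at 79.4, 89.8, 102, 112 and 94.7 at bleomycin day 30, at 85.7, 107 and 94.6 after PNX, and at 75.4 and 109 in sham. The sham pair spanned nearly the whole range of the other libraries, and all 4 groups overlapped. The change against sham was -0.33 ± 0.20 at bleomycin day 14 (adjusted p = 0.163, limma), -0.06 ± 0.18 at bleomycin day 30 (adjusted p = 0.843) and 0.29 ± 0.20 after PNX (adjusted p = 0.254). The difference at bleomycin day 14 was called without bleomycin day 14 replicate 1 (-0.49) or without sham replicate 1 (-0.60). The annotation places 2442 of its 12128 exonic bases under exons of Gm9913 on the other strand, and whether reads were counted by strand is not given in the sources used here.

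Fbn2 is the fibrillin known mainly from developing tissue. It was at 2.38, 1.61 and 2.09 RPKM at bleomycin day 14, at 0.580, 1.50, 0.851, 1.97 and 2.22 at bleomycin day 30, at 0.489, 0.0874 and 0.366 after PNX, and at 0.0198 and 0.0305 in sham. The 3 treated groups lay wholly above sham, and both bleomycin groups lay wholly above PNX. The values rest on an estimated 2130 to 2510 reads at bleomycin day 14, 1016 to 4476 at bleomycin day 30, 87.1 to 483 after PNX, and 17.7 and 29.0 in sham. The mean was 80.6-fold the sham mean at bleomycin day 14, 56.6-fold at bleomycin day 30 and 12.5-fold after PNX. On the log2(RPKM + 0.1) scale, which understates the change of so low a gene, it rose by 3.88 ± 0.55 at bleomycin day 14 (adjusted p = 8.64e-05, limma) and by 3.39 ± 0.51 at bleomycin day 30 (adjusted p = 0.000943). Fbn2 passed the filter through bleomycin libraries alone, so these calls support nothing beyond the levels given. After PNX it rose by 1.75 ± 0.55 (adjusted p = 0.0245). The PNX call was lost with a pseudocount of 1 (0.41, adjusted p = 0.242) and without PNX library A (1.41), PNX library C (1.60), sham replicate 1 (1.69) or sham replicate 2 (1.82). With PNX and sham fitted alone, Fbn2 did not pass the filter and was not tested. With pseudocounts of 1 and 0.01 the change at bleomycin day 14 was 1.43 and 5.63, and at bleomycin day 30 it was 1.15 and 5.10, called each time.

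Mfap2, a small glycoprotein of microfibrils that binds fibrillin (chr4:141010418-141015984, plus strand), was at 25.7, 29.3 and 26.8 RPKM at bleomycin day 14, at 25.8, 28.4, 31.6, 30.8 and 32.5 at bleomycin day 30, at 36.2, 23.1 and 26.7 after PNX, and at 20.8 and 23.9 in sham. Both bleomycin groups lay above sham as deposited, but after scaling the change was 0.04 ± 0.16 at bleomycin day 14 (adjusted p = 0.824, limma) and 0.30 ± 0.15 at bleomycin day 30 (adjusted p = 0.15). After PNX, where library A was highest and library B lay between the sham libraries, it rose by 0.56 ± 0.16 (adjusted p = 0.0155). That call was lost without scaling (0.34), with the compared groups fitted alone (0.55) and without sham replicate 1 (0.46).

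Mfap4, a fibrinogen-like microfibril protein that binds tropoelastin (chr11:61485431-61488900, plus strand), was at 118, 167 and 140 RPKM at bleomycin day 14, at 199, 257, 314, 275 and 315 at bleomycin day 30, at 499, 435 and 489 after PNX, and at 196 and 206 in sham. The groups stood apart, with bleomycin day 14 wholly below sham, PNX wholly above every other library, and 4 of the 5 bleomycin day 30 libraries above sham. It fell by 0.76 ± 0.19 at bleomycin day 14 (adjusted p = 0.00365, limma) and rose by 1.46 ± 0.19 after PNX (adjusted p = 0.000132). At bleomycin day 30 the change was 0.30 ± 0.17 (adjusted p = 0.214), and it was called without replicate 1 of that group (0.40). The summed level of 8 alveolar fibroblast markers was likewise lowest at bleomycin day 14 and highest after PNX, at 158 to 178 RPKM at bleomycin day 14, 383 to 558 at bleomycin day 30, 859 to 1005 after PNX and 695 to 804 in sham, and its part in the level of Mfap4 was not tested. The low sum at bleomycin day 14 was carried mainly by Inmt, which averaged 44.9 RPKM at bleomycin day 14, 289.5 at bleomycin day 30, 518 after PNX and 588.5 in sham (n = 3, 5, 3 and 2). The means of 4 of the 8 markers were higher at bleomycin day 14 than in sham, those of Npnt (41.2 against 37.9 RPKM), Limch1 (33.4 against 22.4), Col13a1 (6.09 against 3.51) and Fgfr4 (2.67 against 2.18), and Inmt and Tcf21 had their highest means in sham, not after PNX.

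Mfap5, the other small microfibril glycoprotein of the set (chr6:122505845-122529290, plus strand), was at 25.1, 33.2 and 26.9 RPKM at bleomycin day 14, at 57.0, 61.1, 74.2, 60.1 and 66.8 at bleomycin day 30, at 44.3, 39.5 and 36.9 after PNX, and at 54.4 and 55.5 in sham. Bleomycin day 14 and PNX lay wholly below sham and bleomycin day 30 wholly above it. It fell by 1.20 ± 0.14 at bleomycin day 14 (adjusted p = 1.34e-05, limma), and the change at bleomycin day 30 was 0.09 ± 0.12 (adjusted p = 0.614). After PNX the change was -0.23 ± 0.14 (adjusted p = 0.195), which was called without scaling (-0.45) and with upper-quartile scaling (-0.36).

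The fibulins Fbln2, Fbln5 and Efemp1 were lower after bleomycin, most of all at day 14. Fbln2, a large fibulin of vessel walls and basement membranes (chr6:91212455-91272540, plus strand), was at 61.7, 38.5 and 45.3 RPKM at bleomycin day 14, at 56.0, 56.0, 76.3, 51.8 and 58.2 at bleomycin day 30, at 46.1, 47.2 and 47.3 after PNX, and at 91.8 and 100.4 in sham. Both sham libraries were above all 11 treated ones. It fell by 1.26 ± 0.20 at bleomycin day 14 (adjusted p = 0.000183, limma), by 0.82 ± 0.18 at bleomycin day 30 (adjusted p = 0.0072) and by 0.81 ± 0.20 after PNX (adjusted p = 0.00724). Without sham replicate 2 the calls at bleomycin day 30 and after PNX were lost (-0.76 at bleomycin day 30, -0.75 after PNX). The bleomycin day 30 call was also lost with a replicate block (-0.78).

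Fbln5, which tethers tropoelastin to microfibrils and whose loss in mice leaves elastic fibres disorganised (chr12:101746565-101819055, minus strand), was at 6.41, 11.5 and 8.95 RPKM at bleomycin day 14, at 18.7, 15.9, 17.2, 14.3 and 16.6 at bleomycin day 30, at 22.6, 22.1 and 22.2 after PNX, and at 25.6 and 22.7 in sham. The bleomycin groups lay below sham without overlap, day 14 lowest, and the PNX libraries lay just under the lower sham library. It fell by 1.70 ± 0.18 at bleomycin day 14 (adjusted p = 7.1e-06, limma) and by 0.67 ± 0.16 at bleomycin day 30 (adjusted p = 0.0112). The day 30 call was lost without sham replicate 1 (-0.58) and with a replicate block (-0.59). After PNX the change was 0.11 ± 0.18 (adjusted p = 0.643), and its sign turned without scaling (-0.11).

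Efemp1, also called fibulin-3 (chr11:28853204-28926743, plus strand), had the largest change of the 4 fibulins at bleomycin day 14. It was at 6.37, 8.06 and 6.84 RPKM at bleomycin day 14, at 51.7, 30.3, 34.5, 22.3 and 28.2 at bleomycin day 30, at 26.7, 33.0 and 28.5 after PNX, and at 56.5 and 71.7 in sham. The 3 bleomycin day 14 libraries were below every other library, and bleomycin day 30 replicate 1 came closest to sham. The mean at bleomycin day 14 was 7.09 ± 0.873 RPKM (SD, n = 3), against 64.1 ± 10.8 (n = 2) in sham, a 9.04-fold lower level. It fell by 3.40 ± 0.27 at bleomycin day 14 (adjusted p = 1.1e-06, limma), by 1.11 ± 0.25 at bleomycin day 30 (adjusted p = 0.0079) and by 0.90 ± 0.27 after PNX (adjusted p = 0.0211). Without sham replicate 2 the calls at bleomycin day 30 and after PNX were lost (-0.94 at bleomycin day 30, -0.73 after PNX). The PNX call was also lost without PNX library A (-0.85), and the bleomycin day 30 call with a replicate block (-0.80). The 6 markers of adventitial fibroblasts, a population in which Efemp1 and Fbln2 are known to be high, summed to 124 to 187 RPKM at bleomycin day 14, 263 to 418 at bleomycin day 30, 124.5 to 152 after PNX and 562 to 610 in sham, and their part in these falls was not tested. Ly6c1, one of the 6 markers, was the highest of them at bleomycin day 14 and went the other way there, at 95.9 RPKM at bleomycin day 14, 27.9 at bleomycin day 30, 11.3 after PNX and 51.7 in sham (means). Pi16 averaged 21.6 RPKM at bleomycin day 14, 181 at bleomycin day 30, 70.8 after PNX and 292 in sham, and Scara5 averaged 4.63 at bleomycin day 14, 59.5 at bleomycin day 30, 28.1 after PNX and 110.4 in sham.

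Efemp2, or fibulin-4, which is needed for elastin crosslinking in mice (chr19:5473954-5482517, plus strand), was at 26.9, 22.6 and 23.9 RPKM at bleomycin day 14, at 24.4, 22.0, 26.3, 23.8 and 24.8 at bleomycin day 30, at 18.8, 16.1 and 16.7 after PNX, and at 21.4 and 25.8 in sham. The bleomycin groups overlapped sham, and the PNX libraries lay below all others. The change was -0.19 ± 0.12 at bleomycin day 14 (adjusted p = 0.176, limma), -0.08 ± 0.11 at bleomycin day 30 (adjusted p = 0.624) and -0.23 ± 0.12 after PNX (adjusted p = 0.138). The PNX difference was called without scaling (-0.45) and with upper-quartile scaling (-0.36), and the one at bleomycin day 14 was called without replicate 1 of that group (-0.28).

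**Figure D2:**
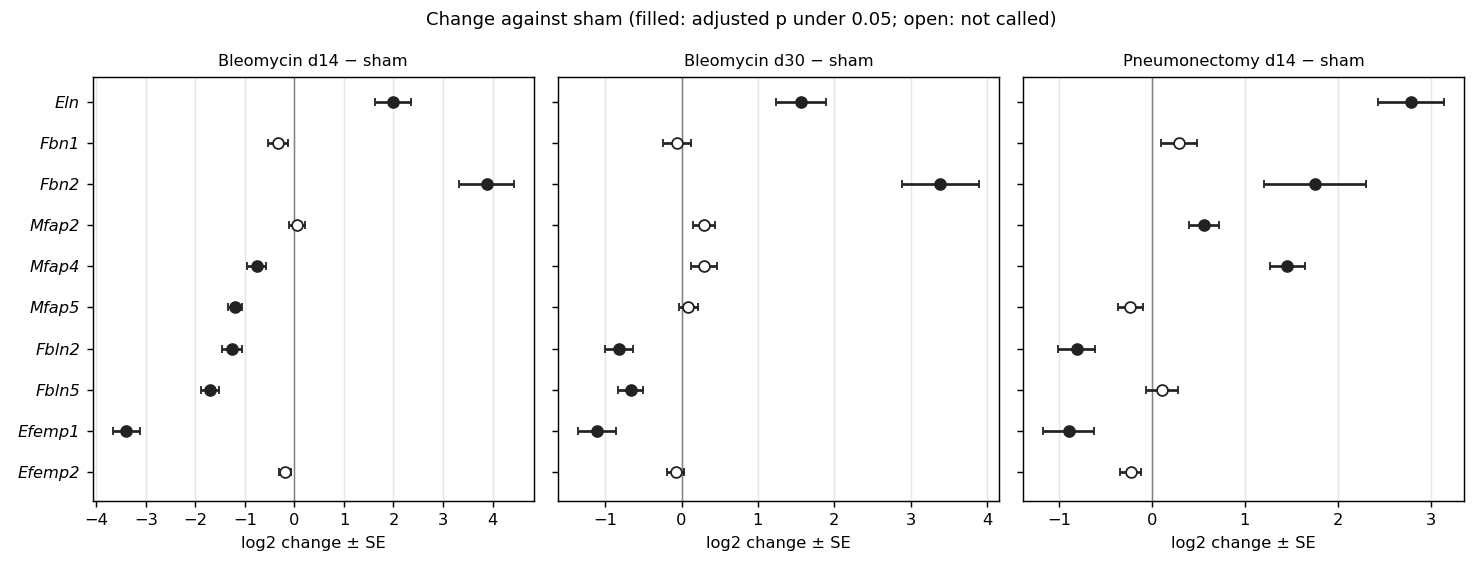
Change against sham in log2(RPKM + 0.1) after scaling (horizontal axis, points ± SE) for the 10 genes in bleomycin day 14, bleomycin day 30 and PNX, filled where adjusted p was under 0.05. Eln and Fbn2 lie right of 0 in all 3 panels, and Efemp1 reaches -3.40 at bleomycin day 14.

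The promoters of the 3 fibulins that fell after bleomycin at both days are shown beside that of Fbn1, which was not called, so that their sequences can be compared. RefSeq (GRCm38.p6) gave promoters of 300 bases, 250 before to 50 after a start, for 6 of the 10 genes. Each is printed 5′ to 3′ on the gene's strand, with GGGCGG (GC box) and TGANTCA (AP-1) in capitals on either strand, so that CCGCCC is a GC box of the other strand.
Efemp1, chr11:28852955-28853254, plus strand: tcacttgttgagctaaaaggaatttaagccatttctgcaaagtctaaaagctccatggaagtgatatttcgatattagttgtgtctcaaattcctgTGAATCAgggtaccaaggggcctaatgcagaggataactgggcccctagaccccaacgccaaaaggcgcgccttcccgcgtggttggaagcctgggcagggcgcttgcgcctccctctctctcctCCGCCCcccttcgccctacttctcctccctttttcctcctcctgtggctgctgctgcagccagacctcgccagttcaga
Fbln5, chr12:101819070-101819369, minus strand: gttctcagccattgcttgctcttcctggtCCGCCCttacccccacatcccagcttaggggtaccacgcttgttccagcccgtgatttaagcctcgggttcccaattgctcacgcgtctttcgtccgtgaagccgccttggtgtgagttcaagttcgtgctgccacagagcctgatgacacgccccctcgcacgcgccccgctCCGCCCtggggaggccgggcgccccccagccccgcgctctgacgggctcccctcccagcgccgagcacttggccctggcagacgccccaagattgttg
Fbln2, chr6:91212514-91212813, plus strand: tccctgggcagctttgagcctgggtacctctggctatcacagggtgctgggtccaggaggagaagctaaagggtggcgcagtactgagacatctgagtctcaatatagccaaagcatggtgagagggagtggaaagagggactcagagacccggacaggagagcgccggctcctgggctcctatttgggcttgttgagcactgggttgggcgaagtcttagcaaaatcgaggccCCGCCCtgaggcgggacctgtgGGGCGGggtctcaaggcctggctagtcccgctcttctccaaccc
Fbn1, chr2:125506389-125506688, minus strand: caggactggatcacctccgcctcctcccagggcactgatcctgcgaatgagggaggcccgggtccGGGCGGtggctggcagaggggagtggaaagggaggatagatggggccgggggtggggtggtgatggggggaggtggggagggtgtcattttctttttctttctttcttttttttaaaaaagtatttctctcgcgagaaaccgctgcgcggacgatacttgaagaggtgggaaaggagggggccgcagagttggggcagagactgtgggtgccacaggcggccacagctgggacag

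The GC box occurred 1 time in the Efemp1 and Fbn1 windows and 2 times in those of Fbln5 and Fbln2, and 35.7% of 32851 promoters of the same length hold it. RefSeq gave a second Fbln5 window (chr12:101818435-101818734, minus strand), not printed, with 0 GC boxes. AP-1 letters were matched in the Efemp1 window alone of these 4, beginning at base 97, and 7.81% of all promoters hold them. TATAAA, held by 13.6% of all promoters, was not among the letters of these 4 windows. A match describes letters only, and no binding was measured.

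Between the days after bleomycin, Mfap4, Mfap5, Fbln2, Fbln5 and Efemp1 rose, and the levels of Eln and Fbn2 overlapped. Set against day 14, 5 of the 10 genes were called higher at day 30 and 0 lower, beside 28.9% of all genes higher and 30.7% lower (59.6% either way), and 4 passed 2-fold as well, beside 14.5% of all genes. Efemp1 rose by 2.29 ± 0.22 (adjusted p = 4.18e-06, limma), to a mean of 33.4 ± 11.1 RPKM (SD, n = 5) at day 30 against 7.09 ± 0.873 (n = 3) at day 14. Mfap5 rose by 1.29 ± 0.11 (adjusted p = 1.42e-06), Mfap4 by 1.06 ± 0.15 (adjusted p = 8.3e-05) and Fbln5 by 1.03 ± 0.14 (adjusted p = 6.81e-05). For these 4 genes every day 30 library was above every day 14 library, but the share of all genes separated in this way was not taken. Fbln2 rose by 0.44 ± 0.16 (adjusted p = 0.0322) with overlapping libraries, and that call was lost in 7 of 17 alternatives. Eln changed by -0.42 ± 0.29 (adjusted p = 0.222) and Fbn2 by -0.49 ± 0.44 (adjusted p = 0.36), neither called. Fbn1 (0.27 ± 0.16), Mfap2 (0.25 ± 0.13) and Efemp2 (0.11 ± 0.09) were not called either. Endothelial markers were lower at day 30 than at day 14, as given above. Depth was 79.85 M to 99.86 M reads at day 14 and 132.6 M to 200.2 M at day 30. All day 30 libraries held Xist while day 14 libraries had at most 0.0126 RPKM, so sex and day cannot be told apart in this comparison. The part of endothelial cells, depth and sex in these differences was not tested.

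At the matched day 14, bleomycin and PNX differed in most of these genes, in Fbn2 one way and in Efemp1, Mfap4, Fbln5 and Mfap5 the other. Fbn2 was higher at bleomycin day 14 than after PNX, by 2.12 ± 0.49 (adjusted p = 0.00229, limma), with means of 2.03 ± 0.386 RPKM at bleomycin day 14 and 0.314 ± 0.206 after PNX (SD, n = 3 each). That call has the limit given above, since bleomycin libraries alone brought Fbn2 past the filter. Of the 10 genes, 1 was called higher and 8 lower, beside 36.2% of all genes higher and 34.6% lower (70.8% either way), and 4 passed 2-fold as well, beside 23.2% of all genes. Efemp1 was lower by 2.50 ± 0.24 (adjusted p = 3.44e-06), Mfap4 by 2.22 ± 0.17 (adjusted p = 4.6e-07), Fbln5 by 1.81 ± 0.16 (adjusted p = 1.45e-06) and Mfap5 by 0.97 ± 0.12 (adjusted p = 2.2e-05). Each had no overlap between the libraries, but the share of all genes without overlap was not taken. The smaller differences were less stable. Scaling factors were 1.10 to 1.18 at bleomycin day 14 and 0.814 to 0.848 after PNX. The median change of all genes was 0.47 without scaling and 0.02 with it. Eln was called lower by 0.80 ± 0.32 (adjusted p = 0.0411), Fbn1 by 0.62 ± 0.18 (adjusted p = 0.00746), Mfap2 by 0.51 ± 0.14 (adjusted p = 0.00674) and Fbln2 by 0.45 ± 0.18 (adjusted p = 0.0407). The Eln call was lost in 7 of 14 alternatives, among them without bleomycin day 14 replicate 1 (-0.77) or 3 (-0.69) and without PNX library A (-0.81) or C (-0.69). The Fbln2 call was lost in 8 and its sign turned in 1 of 14, the losses including bleomycin day 14 replicates 2 (-0.28) and 3 (-0.38) and any one PNX library (-0.47 to -0.44) left out. The calls of Fbn1 and Mfap2 were lost in 1 of 14 alternatives each, that without scaling. Without scaling the 4 were -0.34, -0.16, -0.05 and 0.02, none called, while Efemp2 (0.04 ± 0.11 with scaling, not called) was called higher at 0.50.

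Bleomycin day 30 and PNX day 14 differ in time as well as in injury. They also differ in Xist, at 19.9 to 29.2 RPKM in the bleomycin day 30 libraries and at most 0.0222 after PNX. Depth was 132.6 M to 200.2 M reads at bleomycin day 30 and 68.94 M to 75.43 M after PNX, and the macrophage sums given above did not overlap. The part of sex, depth and macrophages in the differences below was not tested. Between them, 2 of the 10 genes were called higher at bleomycin day 30 and 3 lower, beside 28.5% of all genes higher and 29.0% lower (57.6% either way), and 3 passed 2-fold as well, beside 10.3% of all genes. Fbn2 was higher by 1.63 ± 0.44 (adjusted p = 0.0079, limma) and Mfap5 by 0.32 ± 0.11 (adjusted p = 0.0247), the Mfap5 call being lost without PNX library B or C. The Fbn2 call has the same limit from the filter here. Eln was lower by 1.23 ± 0.29 (adjusted p = 0.00327), Mfap4 by 1.16 ± 0.15 (adjusted p = 5.86e-05) and Fbln5 by 0.78 ± 0.14 (adjusted p = 0.000665). Efemp1 changed by -0.21 ± 0.22 (adjusted p = 0.431) and Fbln2 by -0.01 ± 0.16 (adjusted p = 0.97), and both changed sign without scaling (0.13 and 0.33).

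**Figure D3:**
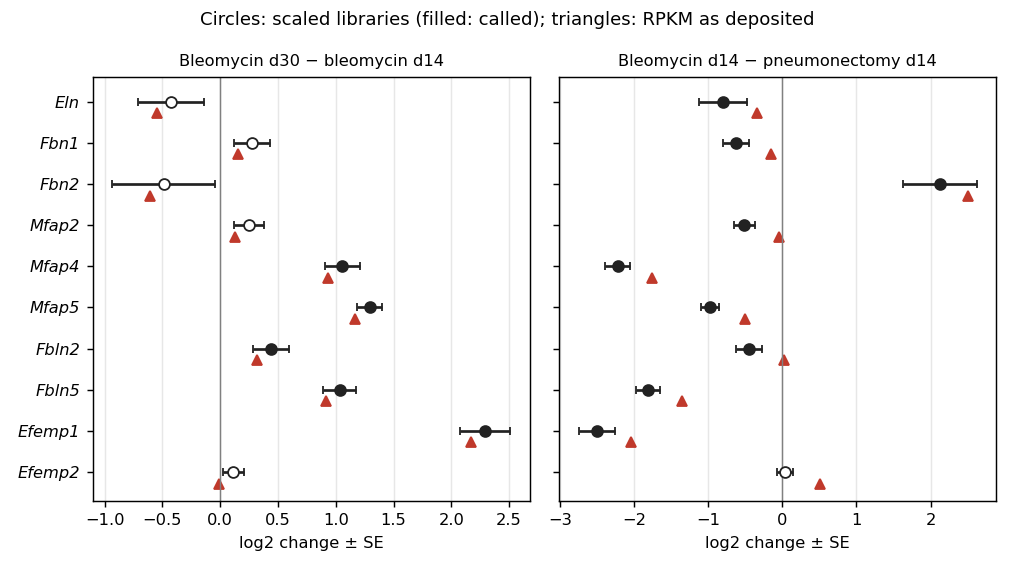
Change in log2(RPKM + 0.1) (horizontal axis) of the 10 genes between bleomycin day 30 and day 14, and between bleomycin day 14 and PNX day 14, as circles ± SE after scaling (filled where called) and triangles for RPKM as deposited. Fbn2 and Mfap4 keep their side of 0 on both scales in the right panel, and Fbln2 moves to 0.02 without scaling.

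Ratios between genes of the same library do not depend on scaling between libraries, and RPKM is a level per length. The ratio of Eln to Fbn1 was 14.8, 26.2 and 18.3 at bleomycin day 14, 7.02, 12.5, 13.1, 13.3 and 15.2 at bleomycin day 30, 24.3, 15.8 and 26.9 after PNX, and 4.55 and 3.27 in sham. So the balance between the fibre core and its main fibrillin was higher in all 11 treated libraries than in either sham library. Fbn2 made up 2.07% to 2.56% of the summed fibrillin RPKM at bleomycin day 14, 0.725% to 2.29% at bleomycin day 30, 0.0820% to 0.567% after PNX, and 0.0262% and 0.0280% in sham. Fbn1 therefore remained almost all of the fibrillin RNA even where Fbn2 was highest. The ratio of Mfap4 to Mfap5 was 11.0 to 13.3 after PNX and 3.50 to 5.21 in all other libraries, where bleomycin day 14 had 4.72 to 5.21, bleomycin day 30 had 3.50 to 4.71, and sham had 3.61 and 3.72. The 10 genes together held 1.16% to 1.53% of the summed RPKM at bleomycin day 14, 0.737% to 1.50% at bleomycin day 30, 1.78% to 2.25% after PNX and 0.650% to 0.691% in sham. Eln alone was 80.2% to 83.8% of their sum at bleomycin day 14, 52.0% to 71.5% at bleomycin day 30, 69.9% to 76.9% after PNX and 36.7% to 38.7% in sham.

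**Figure D4:**
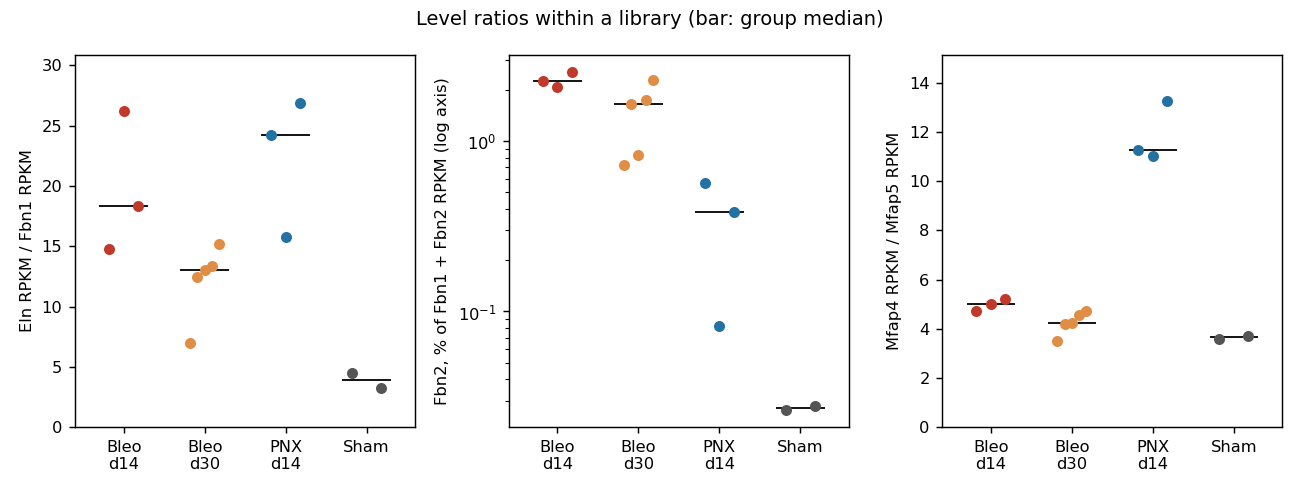
Ratios of RPKM within each library (vertical axes, one point per library, bars at group medians): Eln to Fbn1, Fbn2 as a percentage of Fbn1 plus Fbn2 on a log axis, and Mfap4 to Mfap5. The Mfap4 to Mfap5 ratio is 11.0 to 13.3 in the PNX libraries and at most 5.21 elsewhere.

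The enzymes and binding proteins that assemble the fibre were read from a list of 21 genes, of which 20 were tested. The list held Lox, Loxl1, Loxl2, Loxl3, Loxl4, Ltbp1, Ltbp2, Ltbp3, Ltbp4, Emilin1, Emilin2, Emilin3 (not tested), Fbln1, Fbln7, Adamtsl2, Adamtsl4, Adamtsl5, Adamts10, Adamts17, Atp7a and Fkbp10. Against sham, 6 were called higher and 12 lower at bleomycin day 14, 5 higher and 7 lower at bleomycin day 30, and 11 higher and 5 lower after PNX. Of all genes tested, 33.4% were called higher and 29.9% lower at bleomycin day 14, 14.8% higher and 14.1% lower at bleomycin day 30, and 22.6% higher and 19.3% lower after PNX. The median change of the list was -0.65 at bleomycin day 14, -0.05 at bleomycin day 30 and 0.40 after PNX. The day 30 count was 7 without either sham replicate. Between treated groups, 14 were called higher and 4 lower at bleomycin day 30 set against day 14, 2 higher and 15 lower at bleomycin day 14 set against PNX, and 3 higher and 12 lower at bleomycin day 30 set against PNX. The shares of all genes called higher and lower were 28.9% and 30.7% for bleomycin day 30 against day 14, 36.2% and 34.6% for bleomycin day 14 against PNX, and 28.5% and 29.0% for bleomycin day 30 against PNX.

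Lox, which crosslinks tropoelastin and collagen, averaged 83.7 ± 16.5 RPKM at bleomycin day 14, 32.7 ± 7.81 at bleomycin day 30, 65.5 ± 10.1 after PNX and 17.7 ± 2.72 in sham (SD). It rose at bleomycin day 14 by 1.98 ± 0.27 and after PNX by 2.11 ± 0.27 (adjusted p = 6.1e-05 and 0.000141, limma). At bleomycin day 30 it rose by 0.74 ± 0.25 (adjusted p = 0.0446), a call lost in 9 of 16 alternatives. Loxl1, the family member tied to elastin upkeep in mice, fell at bleomycin day 14 by 0.79 ± 0.10 (adjusted p = 4.39e-05) and rose after PNX by 0.42 ± 0.10 (adjusted p = 0.00699), the PNX call being lost without scaling (0.20) and with the compared groups fitted alone (0.42). So Eln rose with both Lox and Loxl1 after PNX, and with Lox but a lower Loxl1 at bleomycin day 14. Loxl1 was lower at bleomycin day 14 than after PNX by 1.21 ± 0.09 (adjusted p = 5.25e-07).

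The latent TGF-beta binding proteins, which sit on fibrillin microfibrils, differed in direction after bleomycin, where Ltbp2 rose and Ltbp4 fell. Ltbp4, which mouse elastic fibres need together with Fbln5, averaged 52.1 ± 11.1 RPKM at bleomycin day 14, 254 ± 32.8 at bleomycin day 30, 355 ± 43.9 after PNX and 415 ± 63.8 in sham. It fell by 3.25 ± 0.19 at bleomycin day 14 (adjusted p = 1.55e-07, limma) and by 0.83 ± 0.18 at bleomycin day 30 (adjusted p = 0.00575, lost without sham replicate 1), and was not called after PNX (-0.00 ± 0.19, adjusted p = 0.996). Ltbp2, a fibrillin-binding member of the family, averaged 63.4 ± 6.72 RPKM at bleomycin day 14, 80.2 ± 28.7 at bleomycin day 30, 15.7 ± 3.07 after PNX and 2.56 ± 0.146 in sham, and rose in all 3 treated groups. Its change was 4.33 ± 0.36 at bleomycin day 14 (adjusted p = 1.44e-06), 4.70 ± 0.33 at bleomycin day 30 (adjusted p = 5.32e-05) and 2.78 ± 0.36 after PNX (adjusted p = 0.000155). Fbln1, a fibulin outside the 10 genes, fell by 4.28 ± 0.26 at bleomycin day 14 (adjusted p = 2.01e-07), to 18.4 ± 6.63 RPKM against 290 ± 13.8 in sham. Against sham, Ltbp1 fell at bleomycin day 14 by 0.70 ± 0.12 and at bleomycin day 30 by 0.37 ± 0.11 (adjusted p = 0.000284 and 0.025), and rose after PNX by 0.38 ± 0.12 (adjusted p = 0.0216). The Ltbp1 call at bleomycin day 30 was lost without sham replicate 1 (-0.33) or 2 (-0.41), and the one after PNX without sham replicate 1 (0.42) or 2 (0.34), without PNX library B (0.34), without scaling (0.16) and with upper-quartile scaling (0.25). Ltbp3 fell at bleomycin day 14 by 0.59 ± 0.08 (adjusted p = 7.12e-05) and rose after PNX by 0.60 ± 0.08 (adjusted p = 0.000214), and its change at bleomycin day 30 was 0.09 ± 0.08 (adjusted p = 0.408). Ltbp3 was called lower at bleomycin day 14 than after PNX by 1.19 ± 0.07, and Ltbp1 lower at bleomycin day 30 than after PNX by 0.75 ± 0.09 (adjusted p = 1.59e-07 and 4.94e-05).

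The list held ADAMTS and ADAMTS-like genes whose proteins are tied to fibrillin microfibrils. Of these, Adamts17 rose after PNX by 3.75 ± 0.23 (adjusted p = 1.87e-06, limma), to 7.95 ± 0.655 RPKM against 0.601 ± 0.0140 in sham. It also rose at bleomycin day 30 by 1.70 ± 0.21 (adjusted p = 0.000331) and at bleomycin day 14 by 0.80 ± 0.23 (adjusted p = 0.00976). Adamtsl2 rose after PNX by 1.84 ± 0.25 (adjusted p = 0.000194). Adamtsl4 fell at bleomycin day 14 by 2.47 ± 0.13 (adjusted p = 9.42e-08) at bleomycin day 30 by 0.72 ± 0.12 (adjusted p = 0.00145) and after PNX by 0.60 ± 0.13 (adjusted p = 0.00327). Adamtsl5 fell at bleomycin day 14 by 1.43 ± 0.10 (adjusted p = 3.54e-07) and after PNX by 0.55 ± 0.10 (adjusted p = 0.00111). Its call at bleomycin day 30 (-0.27 ± 0.09, adjusted p = 0.0426) was lost in 11 of 16 alternatives, among them without either sham replicate (-0.19 without replicate 1, -0.35 without replicate 2) and without any one of bleomycin day 30 replicates 2 to 5 (-0.29 to -0.24). Adamts10 was higher at bleomycin day 30 than at day 14 by 1.48 ± 0.10 (adjusted p = 2.67e-07). Against sham, Fbln7 fell at bleomycin day 14 by 1.26 ± 0.27 (adjusted p = 0.00162), and rose at bleomycin day 30 by 1.77 ± 0.25 (adjusted p = 0.000625) and after PNX by 1.26 ± 0.27 (adjusted p = 0.00347), the PNX call being lost without sham replicate 2 (0.97).

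Of 8 enzymes known to cut elastin (Elane, Mmp2, Mmp7, Mmp9, Mmp12, Ctsk, Ctsl and Ctss), 6 were tested, Elane and Mmp7 being too low. Against sham, 2 were called higher and 2 lower at bleomycin day 14, 4 higher and 0 lower at bleomycin day 30, and 1 higher and 2 lower after PNX, beside 63.3%, 28.8% and 42.0% of all genes called either way in these comparisons. The higher calls include Mmp12 at both bleomycin days and Mmp9 at bleomycin day 30, which have the limit given below. Ctss, a cathepsin abundant in macrophages, averaged 50.6 ± 30.2 RPKM at bleomycin day 14, 50.7 ± 16.8 at bleomycin day 30, 3.72 ± 0.782 after PNX and 2.59 ± 0.272 in sham, and rose by 3.77 ± 0.51 at bleomycin day 14 and by 4.05 ± 0.47 at bleomycin day 30 (adjusted p = 6e-05 and 0.000239, limma). Mmp12, the macrophage elastase, was at 1.43 ± 0.988 RPKM at bleomycin day 14, 5.28 ± 1.71 at bleomycin day 30, 0.0206 ± 0.0223 after PNX and 0.0127 ± 0.00925 in sham, and no fold is given against so low a level. It was called higher at both bleomycin days (adjusted p = 0.000286 at day 14 and 9.42e-05 at day 30, limma), but Mmp12 and Mmp9 passed the filter on low values through bleomycin libraries alone, so their calls there support nothing further. The macrophage marker sum was higher in those groups too, as given above, and its part in the rise of Ctss and Mmp12 was not tested. Mmp2, a gelatinase that fibroblasts make, fell at bleomycin day 14 by 1.58 ± 0.12 (adjusted p = 5.15e-07), to 78.0 ± 2.82 RPKM against 197 ± 6.89 in sham, and rose after PNX by 0.78 ± 0.12 (adjusted p = 0.000331). Ctsl fell at bleomycin day 14 by 1.68 ± 0.15 (adjusted p = 2.74e-06), and Ctsk rose at bleomycin day 30 by 1.03 ± 0.21 (adjusted p = 0.00492, lost without sham replicate 1). The change of Mmp9 at bleomycin day 30, whose call has the limit just given, was 2.30 ± 0.41 (adjusted p = 0.00223). It was 1.34 without sham replicate 2 and 3.26 without sham replicate 1. After PNX the lower calls were Ctsl (-0.45 ± 0.15, adjusted p = 0.0344) and Mmp9 (-1.23 ± 0.44, adjusted p = 0.0439), both lost in several alternatives, Mmp9 shrinking to -0.27 without sham replicate 1.

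**Figure D5:**
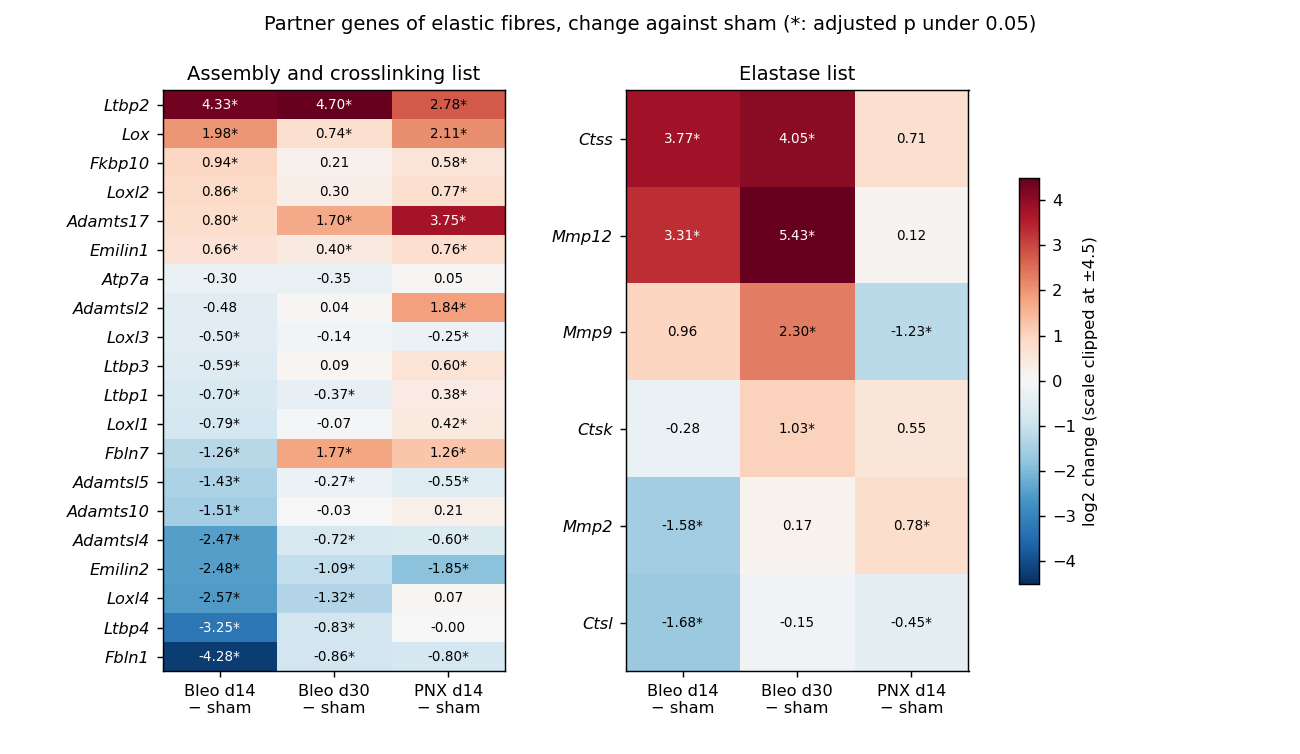
Change against sham in log2(RPKM + 0.1) after scaling (colour and printed number, columns for bleomycin day 14, bleomycin day 30 and PNX) for the tested members of the assembly list and the elastase list, with an asterisk where adjusted p was under 0.05. Ltbp2 and Lox are above 0 in all 3 columns, and Ltbp4 is at -3.25 for bleomycin day 14, -0.83 for bleomycin day 30 and -0.00 for PNX.

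Among the kept genes outside the set, likeness was measured as the root-mean-square gap between centred, scaled log2 values over the 13 libraries, with 0 for identical patterns. The nearest genes to Eln were Gyg (0.35), Fam189a2 (0.36) and an entry whose symbol is written in the table as a date (0.37), where the spread of Eln itself was 0.94. The nearest to Fbn2 were Scube1 (0.35), Lrrc15 (0.39) and Col7a1 (0.40), where Fbn2 itself spread by 1.50, and Lrrc15 averaged 1.51 RPKM at bleomycin day 14, 0.781 at bleomycin day 30, 0.139 after PNX and 0.0137 in sham. Efemp1 was nearest to Cyp21a2-ps (0.16), Glt8d2 (0.19) and Chrdl1 (0.19), and Fbln5 to Aldh2 (0.14), Lamb2 (0.14) and Slc25a23 (0.15). Mfap4 was nearest to Pygm (0.20), Bmp3 (0.23) and Slc24a3 (0.23), Mfap5 to Cyp4v3 (0.09), Fam20c (0.13) and Creg1 (0.14), and Fbln2 to C1qtnf1 (0.17), Dennd2a (0.22) and Fam102b (0.22). For Fbn1 they were Mycbp2 (0.09), Uggt2 (0.11) and Farp2 (0.12), for Mfap2 Adam17 (0.16), Parp8 (0.16) and Ckb (0.16), and for Efemp2 Pvrl1 (0.07), Sec22b (0.09) and Dse (0.09). The own spread was 0.29 for Fbn1, 0.26 for Mfap2 and 0.14 for Efemp2, and 0.44 to 1.18 for the other 5 genes. A gene with little spread lies near any gene that also varies little, so the small gaps of Fbn1, Mfap2 and Efemp2 show no shared pattern. These are descriptions over libraries that share groups and depth.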

How the data were processed

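The values are RPKM per gene and library, computed by the authors and deposited as 1 table of 43346 entries and 13 libraries, and no raw counts were used. Per the labels' protocols, libraries were made from 200 ng of total RNA with the TruSeq v2 mRNA kit, and the build is mm10 (GRCm38), per the submitters' processing notes. A minimum RNA quality number of 6 and 12 PCR cycles are given for the sham and bleomycin libraries but not for PNX. Aligner, counter, annotation and use of strand are not given in the sources used here. The PNX columns are unnumbered, and the letters A, B and C stand for them here.

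RPKM was scaled between libraries by a trimmed mean of log ratios (30% of ratios and 5% of levels trimmed), written for this work, since the values are not counts. A gene entered the tests if 2 or more libraries reached 1 RPKM, which left 12938 genes. limma 3.58.1 in R 4.3.3 fitted log2(RPKM + 0.1) with 1 mean per group over 13 libraries, with an intensity trend and robust moderation. Tests were two-sided, adjusted by Benjamini-Hochberg over all kept genes for each of 6 comparisons, and called at 0.05. The script was tested on simulated data. Read numbers behind low values were estimated from RPKM steps and GENCODE gene lengths, and the deposited table gives no depth itself. Coordinates and exon overlaps come from that annotation, promoters from RefSeq.

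The members, the assembly and elastase lists and the tests were chosen with earlier results of these data known. The text names all 10 members, up to 4 called genes per list and comparison with the smallest p, Lox, Loxl1 and Ltbp4, and the 3 genes nearest to each member. Other changes against sham of Ltbp1, Ltbp3, Fbln7, Adamts17, Adamtsl4 and Adamtsl5, and single marker genes, were named after their values were seen. Alternatives were pseudocounts of 1 and 0.01, other filters, no or upper-quartile scaling, plain moderation, the compared groups alone, a replicate block and leaving out each library.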

Additional observations from a re-analysis of the deposited data

Results flagged for a closer look

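In bleomycin day 30, replicate 3 was highest for Fbln2 at 76.3 RPKM, and its gap to the other 4 libraries (51.8 to 58.2 RPKM) exceeded Dixon's limit of 0.71 of the group's range. The 10 genes were each tested this way in that group of 5, and chance flags about 1 group in 20. The same library held the epithelial marker sum of 1238 RPKM given in the report, and its part was not tested.

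The change against sham differed between the days after bleomycin for 5 genes, by the test of day 30 minus day 14, in which the shared sham libraries cancel. The difference in log2(RPKM + 0.1) was 2.29 for Efemp1, 1.29 for Mfap5, 1.06 for Mfap4, 1.03 for Fbln5 and 0.44 for Fbln2. The Fbln2 call was lost in 7 of 17 alternatives.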

How the results depend on the processing

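Of 899 refits of the 60 changes of the 10 genes, 814 kept direction and side of the threshold, 44 lost the call, 15 gained one and 26 turned sign, and of 1087 refits of 73 list gene changes, 1032 kept both. The calls against sham at bleomycin day 14 (7 genes) and those of Eln and Mfap4 after PNX held in every alternative. Sham has 2 libraries, which limits the day 30 and PNX comparisons. Leaving out 1 library gave 1785 to 4085 genes called at bleomycin day 30 against sham (3731 with all libraries; 3 to 6 of the 10 genes) and 3341 to 5079 after PNX against sham (5430 with all; 3 to 6 of the 10). With the compared groups fitted alone, 3374 genes were called after PNX. The cause was not tested beyond the smaller number of libraries.

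Without scaling, the median change of all genes against sham was 0.26 at bleomycin day 14, 0.11 at bleomycin day 30 and -0.21 after PNX. It was -0.13 at bleomycin day 30 against day 14, and 0.47 and 0.34 at bleomycin day 14 and day 30 against PNX. Genes called higher and lower against sham were then 6193 and 2451 at bleomycin day 14, 3105 and 957 at bleomycin day 30, and 1762 and 5185 after PNX. They were 2785 and 5213 at bleomycin day 30 against day 14, and 7918 and 2307 (bleomycin day 14) and 7408 and 1725 (day 30) against PNX. Upper-quartile scaling gave 2177 and 3994 after PNX against sham, and 5467 and 3785 (bleomycin day 14) and 5285 and 2704 (day 30) against PNX. Signs that turned without scaling, not called with it unless stated, were Efemp2 (0.052) at bleomycin day 14; Fbn1 (0.064), Efemp2 (0.043) and Loxl1 (0.049) at bleomycin day 30; Fbln5 (-0.11, and -0.019 with upper-quartile scaling) after PNX, all against sham. Efemp2 turned (-0.0097) at day 30 against day 14, Fbln2 (0.020, called with scaling) and Lox (0.34) at bleomycin day 14 against PNX, and Mfap2 (0.079), Efemp1 (0.13) and Fbln2 (0.33) at bleomycin day 30 against PNX. That Fbln2 difference was also positive with no filter (0.034), a filter on the mean (0.0063) and upper-quartile scaling (0.14). Mfap2 at bleomycin day 14 was -0.0027 with the compared groups alone.

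Leaving out 1 library turned the sign of some changes near 0. Against sham the ranges were -0.056 to 0.14 for Mfap2 at bleomycin day 14, -0.32 to 0.21 for Fbn1 and -0.21 to 0.058 for Efemp2 at bleomycin day 30, and -0.16 to 0.16 for Ltbp4 after PNX. They were -0.055 to 0.11 for Efemp2 at bleomycin day 14 and -0.10 to 0.040 for Fbln2 at bleomycin day 30 against PNX.

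Same-numbered libraries deviated from their group means with correlations of -0.13 to 0.14. These values cannot decide whether the numbers pair the libraries, since the deviations of the 2 sham libraries from their own mean mirror each other. With a replicate block, 369 genes and 1 of the 10 (Fbn2) were called at bleomycin day 30 against sham. The calls of Eln, Fbln2, Fbln5 and Efemp1 there were lost. Against day 14, Fbln2 lost its call under the block (0.53), and no call of the 10 genes changed at bleomycin day 14 against sham. No paired analysis was possible for PNX because its columns carry no numbers.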
